A study of Mus musculus with 10 samples.

Results

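The genes described here are 10 genes of the DNA damage response in the mouse ovary, *Atm*, *Atr*, *Chek1*, *Chek2*, *Trp53bp1*, *Prkdc*, *Xrcc5*, *Xrcc6*, *Xrcc4* and *Lig4*, taken by their symbols from a table of 55487 genes. Each symbol was found once and all 10 genes passed the filter on low counts, which kept 18956 genes for testing. The kinases encoded by *Atm* and *Atr* start the checkpoint response: *Atm* answers mainly to broken DNA ends and *Atr* to stretches of single-stranded DNA at stalled replication forks. *Chek2* and *Chek1* encode the kinases that they activate in turn, which hold the cell cycle and, in oocytes, can lead to the death of damaged cells. *Trp53bp1* encodes 53BP1, which binds chromatin beside a break and favours end joining. In non-homologous end joining, the Ku heterodimer (Ku80 from *Xrcc5* and Ku70 from *Xrcc6*) holds the broken ends, DNA-PKcs from *Prkdc* is recruited to them, and the ligase from *Lig4* seals them together with its scaffold from *Xrcc4*. Oocytes stay arrested in meiosis for most of the life of the animal, so these genes are much studied in ovarian aging.

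Ovaries came from C57BL/6J mice in 3 groups, with a library for each ovary. The Control group (n = 4, replicates 31, 32, 33 and 34) was 8 weeks old. The Aged group (n = 3, replicates 31, 33 and 34) and the Aged+CF group (n = 3, replicates 30, 32 and 34) were 11 months old by the labels and a month younger by the study's methods. CEFFE, the cell-free protein liquid left when adipose tissue is emulsified and spun, was given to the Aged+CF mice intravenously (200 μL of a 3 μg/μL solution by the labels), in repeated doses over a fortnight. Saline was the vehicle control in the Control and Aged mice. All 3 groups, controls included, were primed with 10 IU of PMSG, a gonadotropin that drives follicle growth, 48 h before collection. No gene was deleted and no transgene was used. The Aged and Aged+CF mice differed from the Control mice in age and the Aged+CF mice also in treatment, so Aged+CF vs Control mixes both. The effect of age (Aged vs Control) and that of treatment (Aged+CF vs Aged) rest on the same 3 Aged ovaries, and their values for each gene are therefore given side by side, without a count of genes that turned in opposite directions.

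The gene counts of an ovary summed to between 15761789 and 21318254 reads. The defining markers of oocytes and granulosa cells were detected in every group, with no marker of the 20 oocyte and 11 granulosa genes at 0 throughout a group. Aged replicate 34 stood apart from the other Aged ovaries. Its B and plasma cell markers summed to 185 CPM (counts scaled to library size by the TMM method) against 23.6 and 7.90 CPM in the other Aged ovaries, its macrophage markers to 1290 against 587 and 612 CPM, and its oocyte markers to 19.9 against 179 and 158 CPM. Oviduct markers summed to 397 CPM in Control replicate 33 and 309 CPM in Aged replicate 34, and to between 6.07 and 35.5 CPM in the others. Aged replicate 33 differed in another way, with low values for genes with long transcripts, as described below. In whole ovaries, fewer cells of a type and less RNA per cell cannot be told apart.

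A gene was called when its fold change was at least 1.5 and its adjusted p, from edgeR's quasi-likelihood F test with Benjamini-Hochberg adjustment over all genes tested, was below 0.05. In Aged vs Control, 1 of the 10 genes was called, *Xrcc5*, which was lower in the Aged group, whereas 11.1% of all genes tested were called. The share was thus close to that of all genes. Adjusted p alone, with no fold limit, was below 0.05 for *Atr* and *Xrcc5*, 2 of 10, against 15.4% of all genes. With unadjusted p and the fold limit, *Chek1* and *Xrcc5* passed, again 2 of 10, against 18.2%. Without the fold limit, unadjusted p was below 0.05 for 4 of 10 (*Atm*, *Atr*, *Chek1* and *Xrcc5*), against 31.6%. Every Aged ovary lay below every Control ovary for 4 of 10 (*Atm*, *Atr*, *Trp53bp1* and *Xrcc5*), against 15.6% of all genes. The log2 fold change was below 0 for 9 of 10, with a median of -0.21 over the 10 genes, and below 0 for 50.1% of all genes, with a median of -0.001.

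After treatment (Aged+CF vs Aged), 0 of the 10 genes were called at adjusted p with edgeR, and 1 gene in the whole table was (0.00528%). The Wald test of DESeq2 also called 0 of 10, against 2.45% of the genes it gave an adjusted p. Without Aged replicate 34, edgeR called 556 of 19342 genes (2.87%) and again 0 of 10. None passed at unadjusted p with the fold limit either, against 7.96% of all genes. Without the fold limit, unadjusted p was below 0.05 for *Atm* and *Atr*, 2 of 10, against 16.3%. For these same genes every Aged+CF ovary lay above every Aged ovary, 2 of 10 against 10.2%. Against the Control group, 0 of 10 were called in Aged+CF (0.179% of all genes), 0 of 10 passed at unadjusted p with the fold limit (7.69%) and 0 of 10 at unadjusted p alone (14.3%). The Wald test of DESeq2 called 0 of 10 here too, against 2.52% of the genes it gave an adjusted p. The ranges of these groups did not overlap for 1 of 10, *Trp53bp1*, against 21.9% of all genes.

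**Figure D1:**
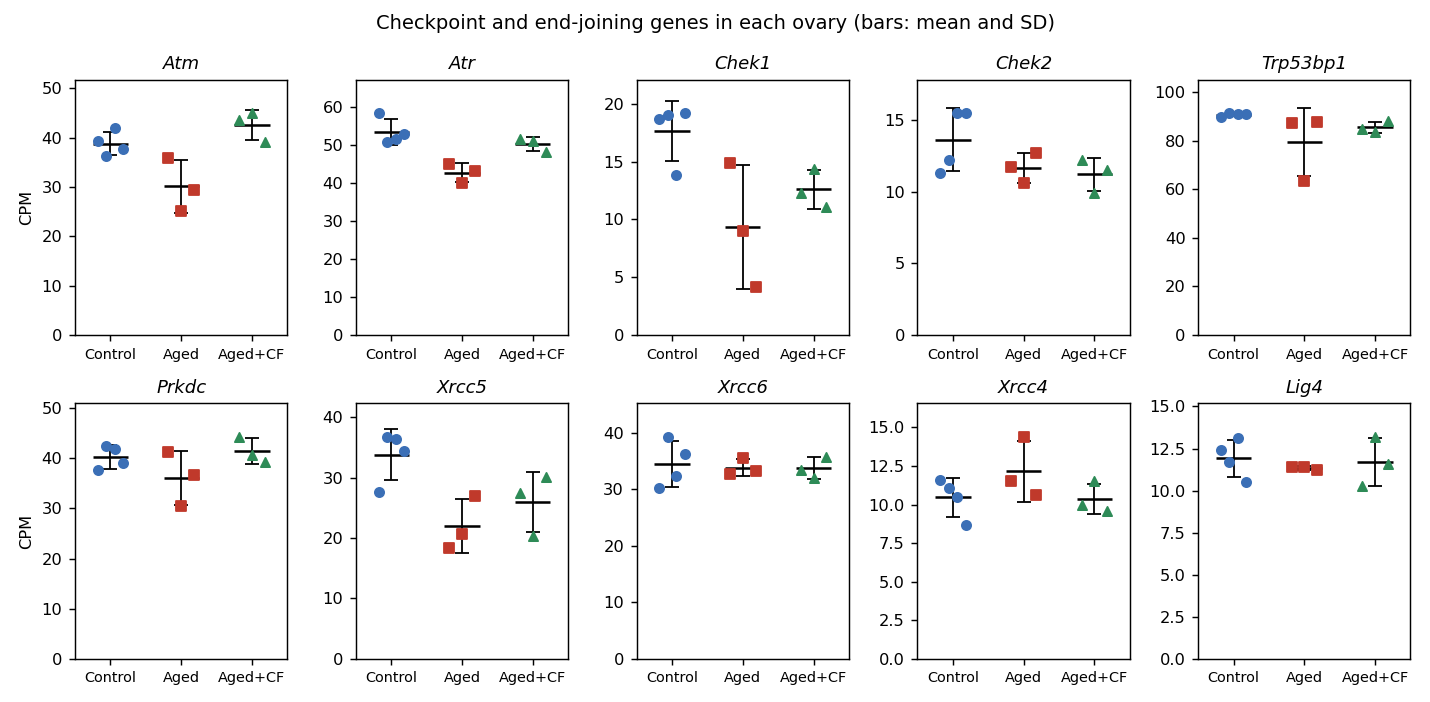
CPM (y axis, from 0) of each gene in each ovary, by group (circles Control, n = 4; squares Aged, n = 3; triangles Aged+CF, n = 3), with the mean (line) and SD (bars). Chek1 has the widest spread among Aged ovaries relative to its mean, from 4.14 to 14.9 CPM, and the Lig4 values of the Aged ovaries lie between 11.2 and 11.4 CPM.

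**Figure D2:**
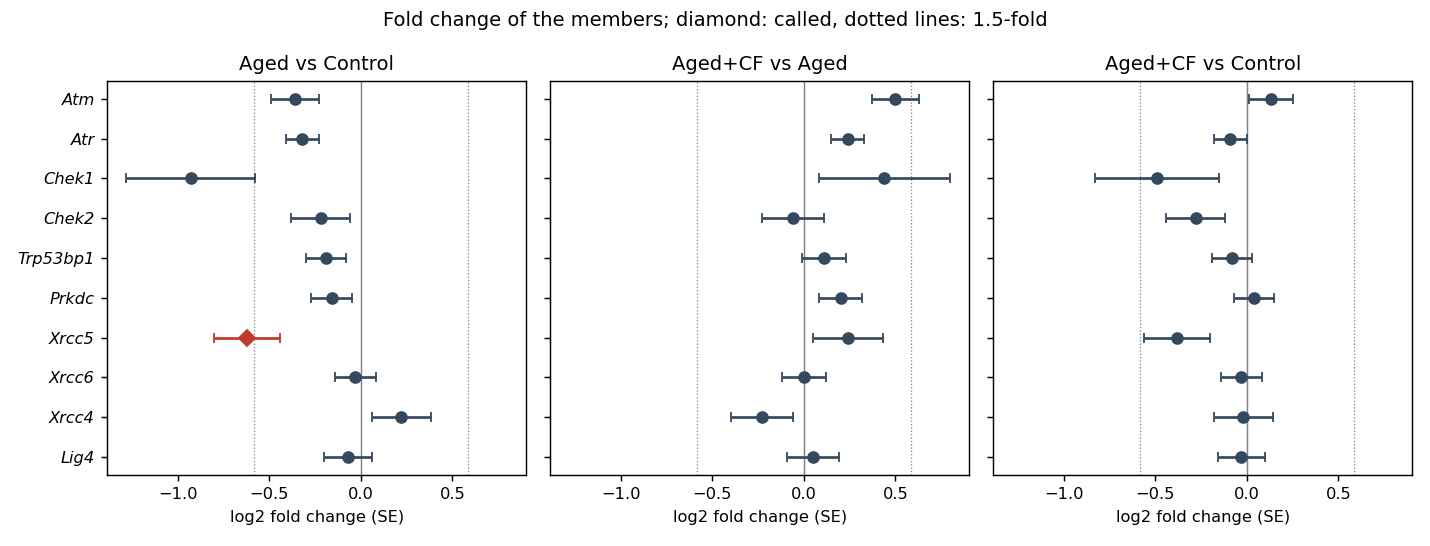
Log2 fold change (x axis) with its SE (bars) of each gene in the 3 comparisons, from edgeR's fit on all 10 ovaries; dotted lines mark a 1.5-fold change and the diamond a called gene. Xrcc5 in Aged vs Control, at -0.62, is the only called value, and Chek1 has the widest error of the 10 genes, with an SE of 0.35 at its Aged vs Control value of -0.93.

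The Ku subunits *Xrcc5* and *Xrcc6* differed in how they varied. *Xrcc5* (ENSMUSG00000026187, chr1:72307421-72394952 on GRCm38, plus strand) had 27.7, 36.8, 36.5 and 34.4 CPM in Control replicates 31, 32, 33 and 34. The Aged replicates 31, 33 and 34 had 18.3, 20.7 and 27.0 CPM, and the Aged+CF replicates 30, 32 and 34 had 27.5, 20.4 and 30.1 CPM. All Aged values were thus below all Control values, though the highest Aged ovary, replicate 34, came within 1 CPM of the lowest Control ovary, and the Aged+CF ovaries overlapped with both groups. *Xrcc5* was 1.54-fold lower in the Aged group (log2 fold change -0.62, SE 0.18, edgeR adjusted p = 0.0450). This value sat just past both limits. The call held in 5 of 15 alternative settings and the direction in all 15, with log2 fold changes from -0.76 to -0.48. Without Aged replicate 31 it was -0.48 (edgeR adjusted p = 0.138), without replicate 33 -0.55 (edgeR adjusted p = 0.110) and without replicate 34 -0.76 (edgeR adjusted p = 0.0172). The log2 fold change of *Xrcc5* was 0.24 between Aged+CF and Aged (SE 0.19, edgeR adjusted p = 0.550) and -0.38 between Aged+CF and Control (SE 0.18, edgeR adjusted p = 0.372).

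*Xrcc6* (ENSMUSG00000022471, chr15:81987835-82040085, plus strand) had 30.2, 39.3, 32.3 and 36.3 CPM in the Control ovaries. The Aged ovaries had 32.7, 35.5 and 33.2 CPM and the Aged+CF ovaries 33.5, 32 and 35.8 CPM, all inside the Control range. Its log2 fold change was -0.03 (SE 0.11) in Aged vs Control. Exons of *Xrcc6* share 344 bases, 7.69% of their length, with exons of *Desi1* on the other strand. *Desi1*, which encodes a deSUMOylating enzyme, had a log2 fold change of 0.37 (SE 0.18, edgeR adjusted p = 0.201) with all Aged ovaries above all Control ovaries. Whether the counting used strand is not given in the sources used here, so reads of these genes over the shared bases cannot be told apart.

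Since both Ku subunits are needed in equal amounts for the heterodimer, their ratio was taken within each ovary, where it does not depend on library scaling. The ratio of *Xrcc5* to *Xrcc6* CPM was 0.917, 0.937, 1.13 and 0.946 in the Control ovaries. It was 0.561, 0.584 and 0.813 in the Aged ovaries and 0.821, 0.637 and 0.842 in the Aged+CF ovaries. All 6 ovaries of the older mice thus had a lower ratio than all 4 Control ovaries. On the log2 scale the Aged mean was 0.61 below the Control mean (-0.64 ± 0.29 against -0.03 ± 0.14, SD, n = 3 and 4; two-sided exact permutation p = 0.0286). The Aged+CF mean of -0.39 ± 0.22 (n = 3) also differed from the Control mean (exact permutation p = 0.0286), which is the smallest p that 3 against 4 ovaries can give. After Benjamini-Hochberg adjustment over the 12 ratio tests made here (4 pairs of genes in 3 comparisons), both exact permutation values became 0.172, above the threshold. Between Aged+CF and Aged the ratio differed by 0.24 on the log2 scale (exact permutation p = 0.200, adjusted 0.267), where 3 against 3 ovaries cannot go below 0.1.

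The sequence upstream of the start differed in base composition and motifs between the Ku genes, and is shown because they encode the subunits of a single complex. These are the 250 bases before the RefSeq start (GRCm38.p6), read 5′ to 3′ on the strand of the gene. For *Xrcc6* this start lies inside the gene as GENCODE M21 draws it. Capitals mark the letters CCAAT (bound by NF-Y), GGGCGG (bound by Sp factors), CACGTG (the E-box), TTTCCCGC (bound by E2F), GCATGCGC (bound by NRF1) and TTCGAA (a form of the cell cycle homology region, whose other form searched was TTTGAA), on either strand.
Xrcc5 (chr1:72307171-72307420, plus strand): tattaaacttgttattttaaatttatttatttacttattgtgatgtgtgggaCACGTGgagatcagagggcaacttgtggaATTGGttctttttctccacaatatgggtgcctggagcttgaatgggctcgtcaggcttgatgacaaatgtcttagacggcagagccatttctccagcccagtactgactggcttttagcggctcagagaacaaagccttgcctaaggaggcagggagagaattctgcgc
Xrcc6 (chr15:82016119-82016368, plus strand): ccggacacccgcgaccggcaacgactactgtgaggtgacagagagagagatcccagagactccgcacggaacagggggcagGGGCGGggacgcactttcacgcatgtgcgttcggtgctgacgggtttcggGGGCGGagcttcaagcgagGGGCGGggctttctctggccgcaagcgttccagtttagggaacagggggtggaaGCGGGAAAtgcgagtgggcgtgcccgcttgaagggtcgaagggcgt
The *Xrcc5* window has 44.8% G and C and holds CCAAT and CACGTG, which occur in 33.8% and 6.02% of the 32851 windows in the RefSeq table. In the *Xrcc6* window, with 65.2% G and C, there are 3 copies of GGGCGG and 1 of TTTCCCGC, found in 32.7% and 0.895% of all windows. The median window has 52.4% G and C. None of these letters was tested as a binding site.

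*Chek1* (ENSMUSG00000032113, chr9:36708482-36727065, minus strand), the kinase downstream of *Atr*, had the widest range of the 10 genes, 4.65-fold between its highest and lowest ovary. Control replicates 31, 32, 33 and 34 had 18.7, 19.0, 13.8 and 19.2 CPM. The Aged replicates 31, 33 and 34 had 14.9, 8.96 and 4.14 CPM, and the Aged+CF replicates 30, 32 and 34 had 12.3, 14.4 and 11.1 CPM. Aged replicate 34 was the lowest of all ovaries, with 75 reads, while Aged replicate 31 lay above the lowest Control ovary. The coefficient of variation was 57.6% in the Aged group, 14.8% in the Control group and 13.3% in the Aged+CF group. In Aged vs Control the log2 fold change was -0.93 (SE 0.35, unadjusted p = 0.0230 and adjusted p = 0.0970 with edgeR). This value rested on the choice of Aged ovaries: it was -0.53 (edgeR adjusted p = 0.124) without replicate 34, -0.86 (edgeR adjusted p = 0.213) without replicate 33 and -1.41 (edgeR adjusted p = 0.0263) without replicate 31. Between Aged+CF and Aged it was 0.44 (SE 0.36, edgeR adjusted p = 0.571), and 0.06 without Aged replicate 34 (edgeR adjusted p = 0.897). The Aged+CF ovaries all lay within the range of the Aged ovaries.

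*Chek1* is used mainly in dividing cells, so marker genes of dividing cells and oocytes were summed in each ovary. The 18 S phase markers summed to 786 to 1100 CPM in the Control ovaries, 347 to 584 CPM in the Aged ovaries and 584 to 660 CPM in the Aged+CF ovaries, and 16 of the 18 were called lower in Aged vs Control. The 18 G2 and M phase markers summed to 835 to 1130, 117 to 402 and 441 to 677 CPM in the same order of groups, with 13 of 18 called lower. For the 20 oocyte markers the sums were 613 to 824, 19.9 to 179 and 225 to 367 CPM, with 14 of 20 called lower. No marker of these lists was at 0 in all ovaries of a group. Aged replicate 34, with the lowest *Chek1*, was also the lowest ovary in all 3 sums. Its *Xrcc5*, in contrast, was the highest among the Aged ovaries. The part of dividing cells and oocytes in the *Chek1* and *Xrcc5* values was not tested. The 11 granulosa markers summed to 5650 to 8590 CPM in the Control, 3910 to 5000 CPM in the Aged and 3310 to 5520 CPM in the Aged+CF ovaries. Of these markers, 10 had a log2 fold change below 0 in Aged vs Control and 1 was called lower. Markers of some other cells were higher in the Aged group. The 8 theca and luteal markers summed to 6380 to 11500 CPM in the Control, 15500 to 35600 CPM in the Aged and 13700 to 21400 CPM in the Aged+CF ovaries, with 6 of 8 called higher in Aged vs Control. Among these markers 1 went the other way, with a log2 fold change of -1.38, and passed at unadjusted p with the fold limit. The 5 red cell markers summed to 71.8 to 112, 265 to 638 and 109 to 260 CPM, with 5 of 5 called higher. Both sums were highest in Aged replicate 33.

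**Figure D3:**
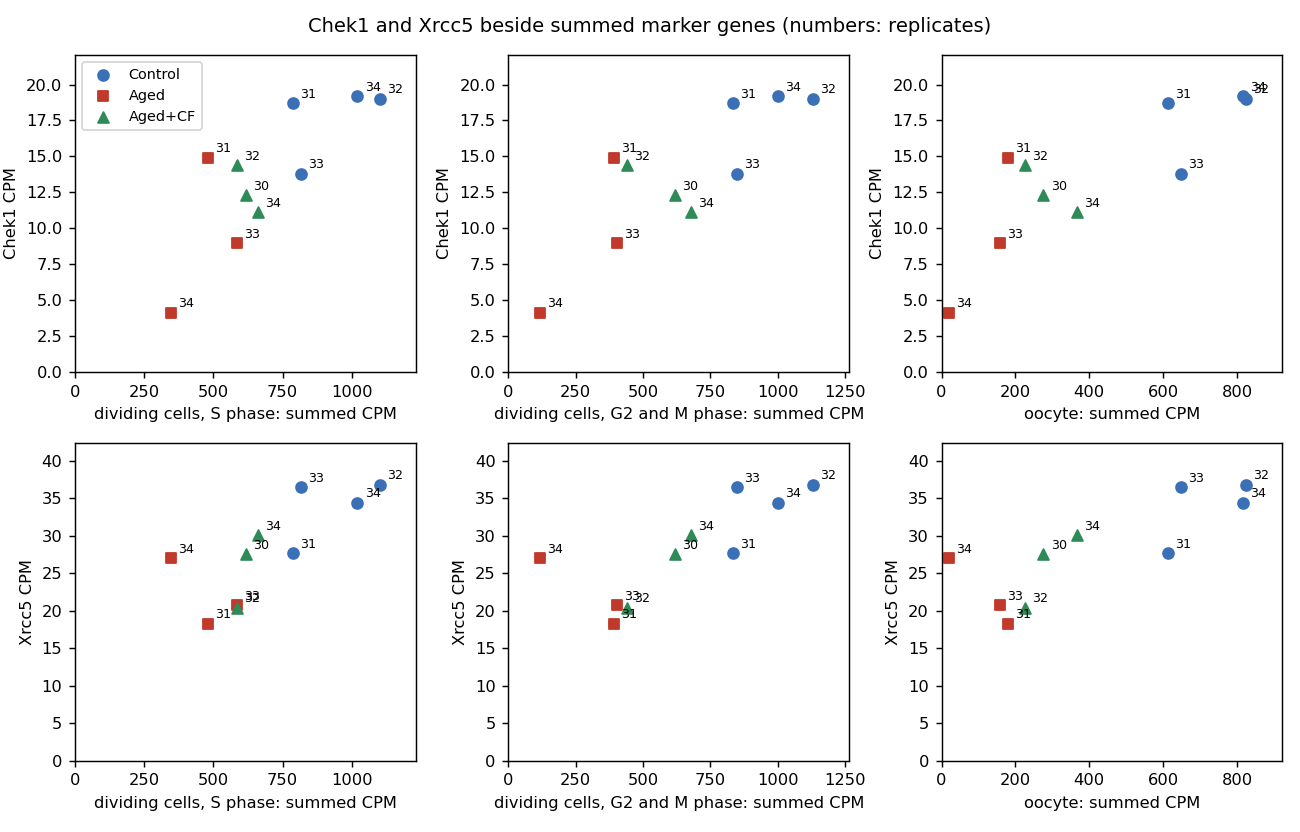
CPM of Chek1 (upper row) and Xrcc5 (lower row) against the summed CPM of S phase, G2 and M phase, and oocyte marker genes (x axes) in the 10 ovaries, marked by group and replicate number. Aged replicate 34 is lowest in the 3 sums and in Chek1 (4.14 CPM) but not in Xrcc5 (27.0 CPM).

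The apical kinases *Atm* and *Atr* had lower means in the Aged group, by less than 1.5-fold, and only *Atr* passed at adjusted p. *Atm* (ENSMUSG00000034218, chr9:53439149-53536740, minus strand) had 39.3, 36.3, 41.9 and 37.7 CPM in the Control ovaries and 35.8, 25.2 and 29.4 CPM in the Aged ovaries. The Aged+CF ovaries had 43.6, 45.0 and 39.2 CPM. No Aged ovary reached the lowest Control or Aged+CF ovary, whereas the Control and Aged+CF ranges overlapped. In Aged vs Control *Atm* had a log2 fold change of -0.36 (SE 0.13, edgeR adjusted p = 0.0769). Between Aged+CF and Aged it was 0.50 (SE 0.13, 1.41-fold, edgeR adjusted p = 0.170). By the Wald test of DESeq2 the latter had an adjusted p of 0.0400, still under 1.5-fold. Leaving out Aged replicate 33 gave -0.22 (edgeR adjusted p = 0.270) and 0.38 (edgeR adjusted p = 0.278) in these comparisons.

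*Atr* (ENSMUSG00000032409, chr9:95857597-95951781, plus strand) had 58.3, 50.6, 51.6 and 52.8 CPM in the Control ovaries, 45.0, 39.9 and 43.1 CPM in the Aged ovaries and 51.6, 51.0 and 48.1 CPM in the Aged+CF ovaries. As for *Atm*, the Aged ovaries formed the lowest group without overlap. *Atr* was 1.25-fold lower in the Aged group (log2 fold change -0.32, SE 0.09, edgeR adjusted p = 0.0334). Adjusted p stayed below 0.05 in 3 of 15 alternative settings, and was 0.117 with edgeR without Aged replicate 33. The log2 fold change of *Atr* was 0.24 between Aged+CF and Aged (SE 0.09, edgeR adjusted p = 0.256) and -0.09 between Aged+CF and Control (SE 0.09).

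The upstream windows of the kinases of the *Atr* branch and of *Atm* are shown because their unadjusted p, like that of *Xrcc5*, was below 0.05 in Aged vs Control.
Atr (chr9:95857347-95857596, plus strand): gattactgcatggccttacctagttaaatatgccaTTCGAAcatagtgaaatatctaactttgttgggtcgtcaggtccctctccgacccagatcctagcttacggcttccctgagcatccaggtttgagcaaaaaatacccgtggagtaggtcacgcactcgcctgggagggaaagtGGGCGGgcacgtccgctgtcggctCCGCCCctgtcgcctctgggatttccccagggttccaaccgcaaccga
Chek1 (chr9:36726659-36726908, minus strand): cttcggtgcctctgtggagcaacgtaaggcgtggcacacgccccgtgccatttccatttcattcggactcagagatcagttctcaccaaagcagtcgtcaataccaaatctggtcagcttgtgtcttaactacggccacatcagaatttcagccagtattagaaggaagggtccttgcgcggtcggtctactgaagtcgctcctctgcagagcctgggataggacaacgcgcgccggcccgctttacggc
Atm (chr9:53536672-53536921, minus strand): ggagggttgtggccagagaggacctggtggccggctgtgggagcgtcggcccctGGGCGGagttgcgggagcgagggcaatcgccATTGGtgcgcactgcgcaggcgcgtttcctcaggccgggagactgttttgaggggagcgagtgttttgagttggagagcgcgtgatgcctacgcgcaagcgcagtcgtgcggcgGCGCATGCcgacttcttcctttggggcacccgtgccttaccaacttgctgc
In the *Chek1* window none of the motifs searched was found, which besides those above were CCGGAAGT (ETS), TGACGTCA (CRE) and the E2F forms TTTGGCGC, TTTCGCGC and TTTGCCGC. This window lies wholly inside *Chek1* as GENCODE M21 draws the gene, so the bases before the GENCODE start of *Chek1* were not searched. The *Atm* window lies partly inside *Atm* in the same way. The *Atr* window holds TTCGAA, found in 1.34% of all windows, and 2 copies of GGGCGG. The *Atm* window, with 66.0% G and C, holds the Sp and NF-Y letters and GCATGCGC, the last found in 2.26% of all windows. Of the 9 genes with a window in the table, 6 hold GGGCGG, 3 CCAAT and 2 any form of the E2F letters (*Chek2* and *Xrcc6*), against 32.7%, 33.8% and 1.86% of all windows. These shares are per window, whereas a gene was counted if any of its windows held the letters. *Lig4* has more than 1 window, and only 1 of them holds GGGCGG. The comparison was not matched for G and C, which reached 70.0% in these genes against a median of 52.4%.

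*Chek2* and *Trp53bp1*, downstream of *Atm*, had smaller differences that did not pass the test. *Chek2* (ENSMUSG00000029521, chr5:110839979-110874145, plus strand) had 11.3, 12.2, 15.5 and 15.5 CPM in the Control ovaries, 11.7, 10.6 and 12.7 CPM in the Aged ovaries and 12.2, 9.94 and 11.5 CPM in the Aged+CF ovaries. The 3 groups overlapped. Its log2 fold changes were -0.22 (SE 0.16) in Aged vs Control, -0.06 (SE 0.17) in Aged+CF vs Aged and -0.28 (SE 0.16) in Aged+CF vs Control. *Trp53bp1* (ENSMUSG00000043909, chr2:121193281-121271407, minus strand) was almost equal in the Control ovaries, at 89.6, 91.3, 90.8 and 90.9 CPM. The Aged ovaries had 87.3, 63.3 and 87.8 CPM and the Aged+CF ovaries 84.7, 83.7 and 88.1 CPM. Only Aged replicate 33 was far below the rest. The log2 fold change of *Trp53bp1* in Aged vs Control was -0.19 (SE 0.11, edgeR adjusted p = 0.281), and -0.02 (SE 0.07) without that ovary. Its exons share 2130 bases, 15.0% of their length, with those of *Tubgcp4*, a subunit of the gamma-tubulin complex, on the other strand, which had a log2 fold change of 0.04 (SE 0.10).

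The ratio of each checkpoint kinase to its activator was compared in the same way as that of the Ku subunits. *Chek1* to *Atr* had a log2 ratio of -1.60 ± 0.22 in the Control (n = 4), -2.36 ± 0.90 in the Aged (n = 3) and -1.99 ± 0.16 in the Aged+CF group (n = 3). Aged differed from Control by -0.76 (exact permutation p = 0.114, adjusted 0.195). *Chek2* to *Atm* had log2 ratios of -1.83, -2.17 and -1.75 in the Aged+CF ovaries, all below those of the Aged ovaries (-1.61, -1.24 and -1.21). The difference of -0.57 had an exact permutation p of 0.1, the smallest that 3 against 3 ovaries allow (adjusted 0.195).

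**Figure D4:**
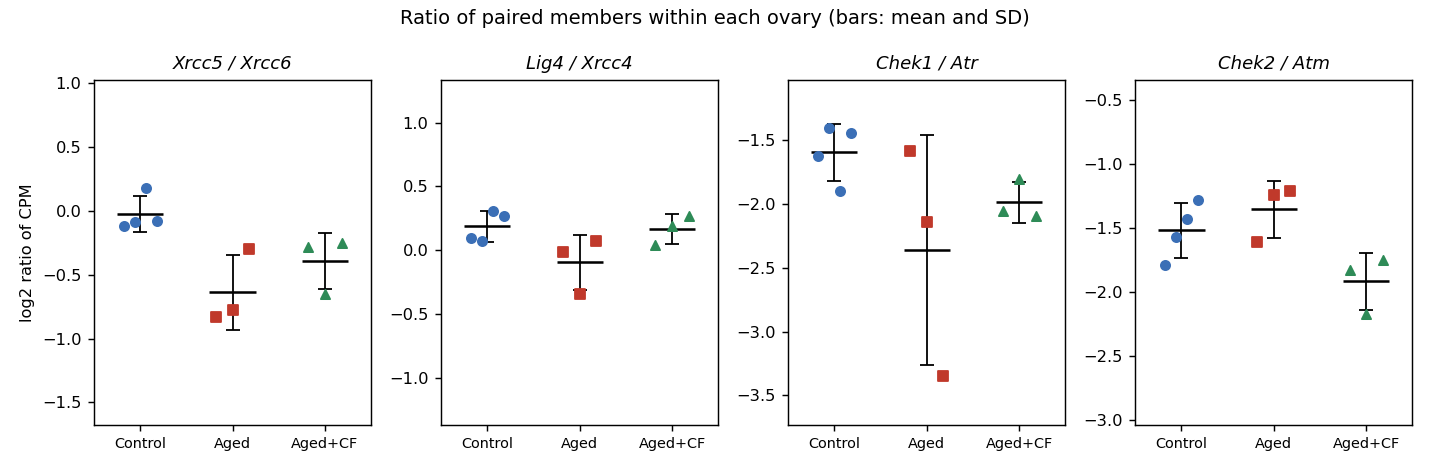
Log2 ratio of CPM (y axes, all of the same span) of Xrcc5 to Xrcc6, Lig4 to Xrcc4, Chek1 to Atr and Chek2 to Atm in each ovary, with the mean (line) and SD (bars) of each group. In the Xrcc5 panel all Aged and Aged+CF ovaries lie below all Control ovaries, and in the Chek2 panel all Aged+CF ovaries lie below all Aged ovaries.

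*Prkdc*, *Xrcc4* and *Lig4*, which act after Ku has bound, showed no called change. *Prkdc* (ENSMUSG00000022672, chr16:15637866-15842235, plus strand) had 37.6, 42.5, 41.9 and 39.1 CPM in the Control, 41.2, 30.4 and 36.7 CPM in the Aged and 44.3, 40.6 and 39.3 CPM in the Aged+CF ovaries. The lowest value was that of Aged replicate 33, and the groups overlapped. *Prkdc* had a log2 fold change in Aged vs Control of -0.16 (SE 0.11), and of -0.02 (SE 0.10) without that ovary. *Xrcc4* (ENSMUSG00000021615, chr13:89774027-90089608, minus strand) was the only one of the 10 genes with a higher estimate in the Aged group. It had 11.6, 11.1, 10.5 and 8.69 CPM in the Control, 11.5, 14.4 and 10.6 CPM in the Aged and 9.98, 11.5 and 9.61 CPM in the Aged+CF ovaries. Aged replicate 33 was here the highest of all ovaries. The log2 fold change of *Xrcc4* was 0.22 (SE 0.16, edgeR adjusted p = 0.383), and 0.11 (SE 0.16) without that ovary. *Lig4* (ENSMUSG00000049717, chr8:9969049-9977686, minus strand) varied least between its highest and lowest ovary, by 1.28-fold. Its Control ovaries had 12.4, 11.7, 13.1 and 10.5 CPM, the Aged ovaries 11.4, 11.4 and 11.2 CPM and the Aged+CF ovaries 10.3, 13.2 and 11.6 CPM. The log2 ratio of *Lig4* to *Xrcc4* was 0.19 ± 0.12 in the Control group (n = 4) and -0.09 ± 0.22 in the Aged group (n = 3; exact permutation p = 0.0571, adjusted 0.195). Aged replicate 33 had -0.34, and Aged replicates 31 and 34 had -0.01 and 0.07.

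Aged replicate 33 was the lowest of the Aged ovaries for 5 of the 10 genes and the lowest of all ovaries for 4 (*Atm*, *Atr*, *Trp53bp1* and *Prkdc*). These 4 genes have the longest coding transcripts of the 10, at 9.8, 8.1, 9.6 and 12.6 kb, so all genes tested were grouped by the length of their longest coding transcript, a check chosen after these values were seen. In Aged replicate 33, the 860 genes with transcripts over 8 kb had a median log2 CPM 0.33 below the mean of the other Aged ovaries. The 4307 genes of 4 to 8 kb had a median of -0.15, the 6124 genes of 2 to 4 kb of 0.01, the 3047 genes of 1 to 2 kb of 0.24 and the 795 genes of under 1 kb of 0.55. *Atm*, *Trp53bp1* and *Prkdc* had -0.37, -0.47 and -0.35 on this scale and *Atr* -0.14. *Xrcc4*, with the shortest transcript at 1.5 kb, had 0.38. In Aged vs Control the genes over 8 kb had a median log2 fold change of -0.15 with all ovaries and -0.02 without Aged replicate 33. Between Aged+CF and Aged their medians were 0.21 and 0.12. The theca and luteal and the red cell sums, as given above, were also highest in this ovary. The part of transcript length or of these cells in the values of single genes, or in the ratios of gene pairs within an ovary, was not tested.

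**Figure D5:**
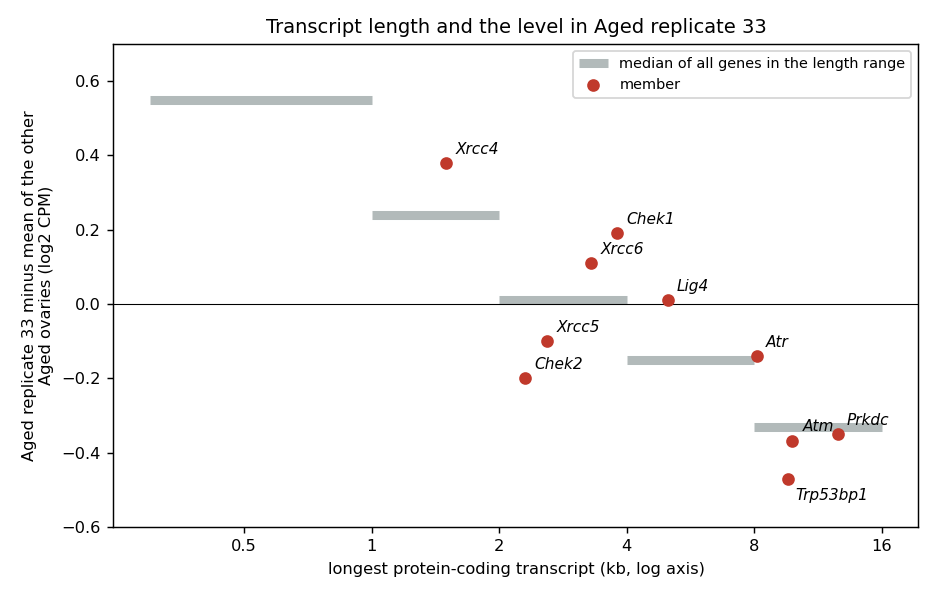
Log2 CPM of Aged replicate 33 minus the mean of the other Aged ovaries (y axis) against the length of the longest protein-coding transcript (x axis, log scale); grey bars are medians of all genes tested in a length range and red points the 10 genes. The medians fall from 0.55 under 1 kb to -0.33 over 8 kb, with Atm, Prkdc and Trp53bp1 between -0.35 and -0.47 at the long end and Xrcc4 at 0.38 at the short end.

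Levels of different genes were compared per length, with the FPKM deposited by the authors (reads scaled to gene length and library total). In the Control group *Xrcc5* had the highest level, 13.7 ± 1.70 FPKM (SD, n = 4), without overlap with the next gene. *Xrcc6* (5.14 ± 0.559) and *Trp53bp1* (5.03 ± 0.0536 FPKM) overlapped with each other and lay above the rest. *Atm* (3.32), *Chek2* (3.14), *Prkdc* (3.08), *Chek1* (2.70), *Xrcc4* (2.39) and *Atr* (1.97 FPKM) followed, each overlapping with the next, and *Lig4* was lowest at 1.52 ± 0.153 FPKM, without overlap. The top 3 genes kept this order in the Aged (8.2, 4.6 and 4.07 FPKM) and Aged+CF groups (10.3, 4.91 and 4.62 FPKM). *Chek1* moved from the seventh place in the Control group to the lowest in the Aged group, at 1.30 ± 0.767 FPKM (n = 3). Its Aged ovaries ran from 0.611 FPKM (replicate 34) to 2.12 FPKM (replicate 31) and overlapped with those of *Lig4*, *Atr*, *Atm*, *Prkdc* and *Chek2*. Over all ovaries *Lig4* was at or above 32% and *Xrcc5* at or above 78.6% of the genes tested.

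The order depends on the length used. The authors' length of *Atr* was 27958 bases, 3.45 times its longest coding transcript of 8102 bases in GENCODE M21, and that of *Xrcc4* was 2.94 times and that of *Xrcc6* 2.1 times the coding transcript, whereas for *Xrcc5* and *Prkdc* the ratio was 0.998 and 1.07. Per kb of the longest coding transcript, a scale chosen after the lengths were seen, *Xrcc5* (13.2 ± 1.67 CPM per kb) and *Xrcc6* (10.5 ± 1.24 CPM per kb, n = 4) overlapped in the Control group. *Atr* then took the fifth place, at 6.58 ± 0.425 CPM per kb. In the Aged group *Xrcc6* (10.3 ± 0.446) came before *Xrcc5* (8.60 ± 1.75 CPM per kb, n = 3) on this scale, with overlap. *Chek1* (2.45 ± 1.41) was then not the lowest in the Aged group but came before *Lig4* (2.25 ± 0.0212 CPM per kb), with overlap.

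Of the 10 genes, 4 share the stretch before their start with a gene on the opposite strand. *Atm* lies 307 bases from *Npat*, which encodes a coactivator of histone gene transcription in S phase. *Npat* had 36.1 to 39.6 CPM in the Control, 28.1 to 31.6 CPM in the Aged and 33.1 to 37.7 CPM in the Aged+CF ovaries. It thus had the Aged group lowest without overlap, as *Atm* did (log2 fold change -0.39, SE 0.09, edgeR adjusted p = 0.0212 in Aged vs Control, and 0.26, SE 0.10, edgeR adjusted p = 0.245 after treatment). *Prkdc* lies 466 bases from *Mcm4*, a subunit of the replicative helicase, which was called lower in Aged vs Control (log2 fold change -0.74, SE 0.12, edgeR adjusted p = 0.00630) with 33.1 to 39.2 CPM against 53.3 to 67.9 CPM. The difference between *Mcm4* and *Prkdc* was not tested. *Chek2* lies 202 bases from *Hscb* (log2 fold change -0.34, SE 0.19) and *Lig4* 21 bases from *Abhd13* (0.17, SE 0.08), neither of which was called. The start of *Xrcc4* lies within *Tmem167* on the opposite strand, whose log2 fold change was 0.11 (SE 0.11). Exons of *Xrcc4* and *Tmem167* share 112 bases. The other genes that overlap *Xrcc4*, *Gm4117* and *Gm24498*, share no exon with it. *Gm49511*, within *Prkdc*, had no count in any ovary, and *1700065D16Rik*, *Gm24004* and *Gm16794*, which overlap *Atr*, had at most 3.10 CPM in any ovary.

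Other genes of the checkpoint were followed in a list of 42, all of them tested. In Aged vs Control 9 of 42 were called, all lower (7 to 10 when 1 ovary was left out), and the median log2 fold change was -0.27. Among all genes tested 11.1% were called, with 6.06% called lower, and the median was -0.001. The largest falls among the called genes of the list were those of *Clspn*, the adaptor through which *Atr* activates *Chek1* (16.2 ± 3.08 CPM in the Control group, n = 4, and 4.35 ± 1.63 CPM in the Aged group, n = 3; log2 fold change -1.90, SE 0.30, edgeR adjusted p = 0.00630), *Timeless*, of the fork protection complex (-1.36, SE 0.21, edgeR adjusted p = 0.00628), and *Pkmyt1*, an inhibitory kinase of CDK1 (-1.11, SE 0.29, edgeR adjusted p = 0.0302). The call of *Pkmyt1* held in 8 of 15 alternative settings, with edgeR or DESeq2 adjusted p from 0.00270 to 0.220, and was lost, for example, when Control replicate 32 was left out (edgeR adjusted p = 0.0753). *H2ax*, the histone that the apical kinases phosphorylate at breaks, had 74.4 to 106 CPM in the Control and 42.9 to 55.7 CPM in the Aged ovaries and was also called (log2 fold change -0.83, SE 0.15, edgeR adjusted p = 0.0100). *Trp53*, the p53 gene, passed adjusted p but not the fold limit (-0.49, SE 0.13, edgeR adjusted p = 0.0306). *Trp63*, whose product guards oocytes against DNA damage, had 4.92 to 7.79 CPM in the Control ovaries and 5.01, 2.05 and 2.48 CPM in the Aged ovaries (log2 fold change -1.0, SE 0.33, edgeR adjusted p = 0.0663). The part of the oocyte and dividing cell markers, whose sums in the same ovaries are given above, in these counts was not tested.

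After treatment (Aged+CF vs Aged) 0 of these 42 genes were called with edgeR, against 0.00528% of all genes. DESeq2 called 2 (*Cdkn1a* and *Clspn*), against 2.45% of the genes it gave an adjusted p. With edgeR at unadjusted p and the fold limit 3 passed, *Cdkn1a*, *Clspn* and *Timeless*, all higher. Of all genes tested 7.96% passed in this way, so that the count was near the background. Genes that passed and were higher made up 3.91% of all genes. *Cdkn1a*, a p53 target that encodes the cell cycle inhibitor p21, had 41.9, 78.2 and 69.4 CPM in the Aged+CF ovaries, against 27.3, 15.0 and 27.0 CPM in the Aged and 14.1, 23.1, 25.9 and 25 CPM in the Control ovaries. Every Aged+CF ovary was above all others. The log2 fold change of *Cdkn1a* was 1.45 (SE 0.31, unadjusted p = 0.000953, adjusted p = 0.159 with edgeR) against the Aged group and 1.52 (SE 0.29, edgeR adjusted p = 0.0719) against the Control group, and 0.07 (SE 0.29) in Aged vs Control. With the Wald test of DESeq2 its adjusted p was 0.00190 and 0.000107 in the first and second of these comparisons. *Clspn* had 9.10 ± 2.28 CPM in the Aged+CF group (n = 3; log2 fold change 1.07 against Aged, SE 0.31, edgeR adjusted p = 0.178). Between Aged+CF and Control 0 of 42 were called with edgeR, against 0.179% of all genes. DESeq2 called 2 (*Cdkn1a* and *H2ax*), against 2.52% of the genes it gave an adjusted p. With edgeR at unadjusted p and the fold limit 6 passed, 5 of them lower. Of all genes 7.69% passed in this way, and 4.36% passed and were lower.

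Of 21 other end-joining genes 20 were tested, and *Dntt*, the template-free polymerase of lymphocytes, was too low. With age 3 of 20 were called, against 11.1% of all genes, and the median log2 fold change was 0.00. *Polq*, the polymerase of the alternative, microhomology-mediated route, fell from 7.97 ± 1.58 CPM (n = 4) to 2.80 ± 0.917 CPM (n = 3; log2 fold change -1.51, SE 0.30, edgeR adjusted p = 0.0123). *Parp1*, a sensor of DNA breaks, fell from 225 ± 13.3 to 145 ± 4.51 CPM (-0.64, SE 0.09, edgeR adjusted p = 0.00547). *Paxx*, which binds Ku and stabilizes the end-joining complex, was called higher (1.33, SE 0.34, edgeR adjusted p = 0.0303), although its Aged ovaries ran from 11.5 to 40.7 CPM and overlapped with the Control ovaries at 9.17 to 11.8 CPM. Its call held in 7 of 15 alternative settings and was lost without any single Control ovary and without Aged replicate 31 or 33 (0.91, edgeR adjusted p = 0.0976, without the latter). After treatment 0 of 20 were called with edgeR, against 0.00528% of all genes. DESeq2 called 1 (*Polq*), against 2.45% of the genes it gave an adjusted p. With edgeR at unadjusted p and the fold limit 2 passed, *Polq* higher and *Paxx* lower (log2 fold changes 1.08 and -1.08), against 7.96% of all genes. Between Aged+CF and Control 0 of 20 were called, against 0.179% of all genes, and 0 of 20 passed at unadjusted p with that limit, against 7.69%.

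The genes most like each of the 10 were sought among 13120 genes with a mean of at least 5 CPM, by the root mean square difference of log2 CPM over the 10 ovaries, each gene centred on its mean. The nearest were *Plrg1* and *Med28* for *Xrcc6* (0.040 and 0.056), *Tfcp2* and *Gon4l* for *Trp53bp1* (0.038 and 0.046), *Brd1* and *Ubp1* for *Atr* (0.044 and 0.045), *Ranbp10* and *Epc1* for *Prkdc* (0.058 and 0.068), and *Mga* and *Zfp292* for *Atm* (0.068 and 0.077). *Tprn* and *Acsf3* were nearest to *Lig4* (0.064 and 0.068), *Tmlhe* and *Dnajc19* to *Xrcc4* (0.080 and 0.084), and *Fam3a* and *Fbxo21* to *Chek2* (0.103 and 0.105). For *Xrcc5* these were *Sntg2* (0.065) and *Aldh18a1* (0.105), both called lower in Aged vs Control (log2 fold changes -0.73 and -0.64, edgeR adjusted p = 0.0239 and 0.0145). Both were picked for their likeness to *Xrcc5* in these same ovaries, so their calls are not separate support for that of *Xrcc5*. *Chek1* stood furthest from its neighbours, *Lamc3* (0.175) and *Pkmyt1* (0.204), and from the other 9 genes, with *Atm* nearest at 0.524. The distance is not scaled to the spread of a gene, which was widest for *Chek1* (coefficient of variation 35.3% over the 10 ovaries). *Pkmyt1* is also on the checkpoint list. Within the 10 genes the closest were *Trp53bp1* and *Prkdc*, at 0.096, and *Xrcc6*, the partner of *Xrcc5*, was not among the nearest genes of *Xrcc5*.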

How the data were processed

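Counts per gene for each ovary, the raw values as deposited, were used for all tests. The authors also deposited FPKM values, which equal the count divided by a fixed length per gene and by the library total, within 0.0839%. The submitters' processing notes name TopHat, Cufflinks 2.1.1 and GRCm38.p4, and the counting tool and its use of strand are not given in the sources used here. With edgeR 4.0 in R 4.3, genes were filtered by filterByExpr, scaled by TMM and fitted by quasi-likelihood with a mean per group over all 10 ovaries (0.05 threshold, fold 1.5). This fit was checked on simulated data with the same spread in every group. In the real data the biological coefficient of variation was 0.209 in the Control, 0.377 in the Aged and 0.192 in the Aged+CF group. The check did not cover such unequal spread. Alternatives were DESeq2 1.42, its size factors, no filter, no fold limit, only 2 groups in the fit, a replicate block and leaving out each ovary; the use of transcript lengths was added after seeing the data. Ratios within an ovary were compared by two-sided exact permutation tests. The members and lists were chosen with earlier results of these data known. Genes named beside the 10 are their head-to-head neighbours within 1000 bases, genes overlapping them, up to 3 called rises and 3 called falls of each list per comparison with at least 1 CPM, the 2 most alike genes, and *Trp53*, *Trp63*, *Cdkn1a* and *H2ax*. Genes named because they passed unadjusted p were chosen after their values were seen. Log2 CPM used a prior count of 2. Positions are from GENCODE M21 on GRCm38 and upstream windows from RefSeq on GRCm38.p6. The sample titles give only a group and a number for each ovary, and the ovaries were taken here as coming from different animals. The p-values weigh a difference between groups against the spread between ovaries. No libraries were duplicates.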

Additional observations from a re-analysis of the deposited data

Results flagged for a closer look

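Among the Control ovaries (n = 4), 1 value of *Chek1* lay far from the rest: replicate 33 had 13.8 CPM, against 18.7 to 19.2 CPM in the others. The log2 ratio of *Xrcc5* to *Xrcc6* was 0.18 in the same ovary, against -0.12 to -0.08 in the others. The gap to the nearest ovary, as a share of the whole range, was above Dixon's 95% critical value for 4 samples in both cases. Chance alone sets off this rule in about 1 group in 20, and 14 groups of values were examined, 10 genes and 4 ratios. Oviduct markers summed to 397 CPM in this ovary, and their part in these values was not tested.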

How the results depend on the processing

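The call of *Xrcc5* in Aged vs Control sat at its limits. Of the 10 genes, 1 was called as reported, 2 with no fold limit, and 0 with no filter on low counts, with only the 2 groups compared in the fit, or with a replicate block, while leaving out an ovary gave 0 to 1. The counts at unadjusted p were 1 with the block and 0 to 2 without an ovary, the lowest without Aged replicate 33. For Aged+CF vs Aged they were 0 to 2, the highest without Aged replicate 31 (*Atm* and *Chek1*). Of the checkpoint list 9 were called in Aged vs Control and 0 with the block; of the end-joining list, 5 with no fold limit, 0 with the block and 1 to 3 without an ovary. After treatment the Wald test of DESeq2 called 2 checkpoint and 1 end-joining genes, and leaving out an ovary gave 0 to 1 of the latter. In Aged+CF vs Control the checkpoint list had 3 calls with only 2 groups in the fit, 2 with DESeq2, and 0 to 2 without an ovary.

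Over all genes, 2096 were called in Aged vs Control as reported, 1440 with only the 2 groups compared and 0 with the block, and 1081 to 3112 without an ovary. In Aged+CF vs Aged DESeq2 called 443 genes where edgeR called 1, and leaving out an ovary gave 1 to 556. In Aged+CF vs Control the counts were 34 as reported, 487 with only the 2 groups compared, 508 with DESeq2, 0 with the block and 7 to 348 without an ovary, the highest of each comparison without Aged replicate 34. The replicate numbers did not pair the ovaries: the deviations of same-numbered Aged and Control ovaries correlated at 0.138, -0.185 and 0.0696. With fewer ovaries the exact test of the *Xrcc5* to *Xrcc6* ratio cannot reach 0.05, and the Aged minus Control difference ran from -0.78 to -0.51. For the 10 genes and the ratios, 24 values lost their threshold (10 of *Xrcc5*, 14 of the *Xrcc5* to *Xrcc6* ratio) and 1 gained it (*Chek1* without Aged replicate 31). The 14 refer to the unadjusted exact permutation p with an ovary left out, so their loss was fixed by the group size. None turned direction past the threshold, and the causes of the other changes were not tested. The 10 genes had 75 to 1879 reads in an ovary, so counting error weighs most on the lowest, such as *Chek1* in Aged replicate 34.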
